A study of Mus musculus with 6 samples.

Results

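The citric acid cycle enzyme genes described here are Cs, Aco1, Idh1, Idh2, Idh3a, Ogdh, Sdha, Fh1 and Mdh2. Accessible chromatin at these 9 genes in mouse kidney was read from a single list of ATAC-seq peaks. ATAC-seq uses a transposase that cuts open DNA and leaves sequencing adapters there, so that reads pile up where chromatin is accessible. A stretch of piled-up reads is called here an interval, and each local maximum inside it a summit. An interval belonged to a gene when it overlapped the stretch from 3 kb upstream of the gene start to the gene end, in the direction of transcription. By this rule, 124 of the 279569 intervals in the list lay at the 9 genes, and they held 423 summits.

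The study labelled 6 libraries from kidney, 3 from WT mice and 3 from Acly cKO mice, and gave Control as the treatment of each. The WT mice carried the floxed Acly allele without Cre, and the Acly cKO mice were Acly fl/fl with Cre under the Ksp (Cdh16) promoter, which is active in tubular epithelium. Nuclei of the cortex were used without sorting, so all cell types of that tissue contributed, and non-tubular cells of the Acly cKO mice kept the gene. The WT libraries were labelled batches 1 and 2 and the Acly cKO libraries batches 4 and 5, which means that batch cannot be told apart from genotype. The study also used earlier WT datasets, which were not analysed here as samples.

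By its peak names the list was called on all libraries together, and it holds no value for a single library or genotype. Which libraries went into the pool is not stated, so it may or may not hold reads of the earlier WT datasets. No genotype was therefore compared, and no replicate error could be given. Every value below describes the pooled kidney chromatin. In such bulk tissue, fewer cells of a type with an open site and less opening per cell cannot be told apart.

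The citric acid cycle oxidises the acetyl group of acetyl-CoA in mitochondria and feeds electrons to the respiratory chain. Tubular epithelium of the kidney cortex, above all the proximal tubule, is rich in mitochondria and depends on this oxidation for the energy of transport. Citrate that leaves the mitochondria is split in the cytosol by ACLY into acetyl-CoA and oxaloacetate, and that acetyl-CoA serves lipid synthesis and histone acetylation.

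Not all 9 genes act within the cycle itself. Cs encodes citrate synthase, which makes citrate from acetyl-CoA and oxaloacetate. Aco1 encodes the cytosolic aconitase, which converts citrate to isocitrate and, without its iron-sulfur cluster, binds iron-responsive elements in mRNAs. Idh1 encodes the NADP-dependent isocitrate dehydrogenase of cytosol and peroxisomes, Idh2 its mitochondrial counterpart, and Idh3a the catalytic subunit of the NAD-dependent enzyme of the cycle. Ogdh encodes the first enzyme of the alpha-ketoglutarate dehydrogenase complex, Sdha the flavoprotein subunit of succinate dehydrogenase, Fh1 fumarase, and Mdh2 the mitochondrial malate dehydrogenase, which returns malate to oxaloacetate. Aco1 and Idh1 therefore stand for cytosolic forms of the reactions that turn citrate into alpha-ketoglutarate.

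All 9 genes had an interval over the start of their canonical transcript, as did 71.2% of the 21757 protein-coding genes. With q at the highest summit under 1e-05, the count was again 9 of 9, beside 69.4% of protein-coding genes. The height of an interval is given as the fold enrichment at its highest summit, the pileup there over the background that the caller assumed for the genome. It is read at a single base and does not grow with gene length. At the 9 starts it ran from 44.8-fold to 90.9-fold, with a median of 64.5-fold. Over the 15496 protein-coding start intervals the median was 31.8-fold, the middle 50% lay between 15.3-fold and 49.5-fold, and the 90th percentile was 66.7-fold.

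Fh1 was the highest of the 9, at 90.9-fold (95% Poisson interval 86.2 to 95.8, from 1388 reads at the summit), with a −log10 q of 2162. Aco1 followed at 88.1-fold (83.4 to 92.9, 1344 reads), with a −log10 q of 2075. These intervals cover counting error in the pool only. Fh1 was at percentile 98.3 of the protein-coding start intervals and Aco1 at percentile 97.9. The ratio of Fh1 to Aco1 was 1.03 (0.957 to 1.11), so their order was within counting error.

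Idh1 reached 67.6-fold (63.6 to 71.9) with a −log10 q of 1476, Ogdh 65.5-fold (61.5 to 69.7) with 1415, Cs 64.5-fold (60.5 to 68.6) with 1388, and Mdh2 61.6-fold (57.7 to 65.7) with 1307. These 4 formed a narrow band in which no neighbours differed beyond counting error, though Idh1 and Mdh2, its ends, were not compared. The neighbour ratios were 1.03 for Idh1 over Ogdh (0.946 to 1.13), 1.02 for Ogdh over Cs (0.929 to 1.11) and 1.05 for Cs over Mdh2 (0.956 to 1.15). The step from Aco1 down to Idh1 was the widest in this order, a ratio of 1.30 (1.20 to 1.41).

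Idh2 stood at 55.1-fold (51.5 to 59.0) with a −log10 q of 1129.7, below Mdh2 by a ratio of 1.12 (1.02 to 1.23). Sdha followed at 46.6-fold (43.3 to 50.2) with a −log10 q of 904, and the ratio of Idh2 to Sdha was 1.18 (1.07 to 1.31). Idh3a was the lowest, at 44.8-fold (41.5 to 48.3) with a −log10 q of 857. Sdha and Idh3a differed by less than counting error, at a ratio of 1.04 (0.936 to 1.16). Idh3a was still above the protein-coding median, at percentile 69.1, and Sdha was at 71.5. The 9 genes had a median percentile of 88.7.

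**Figure D1:**
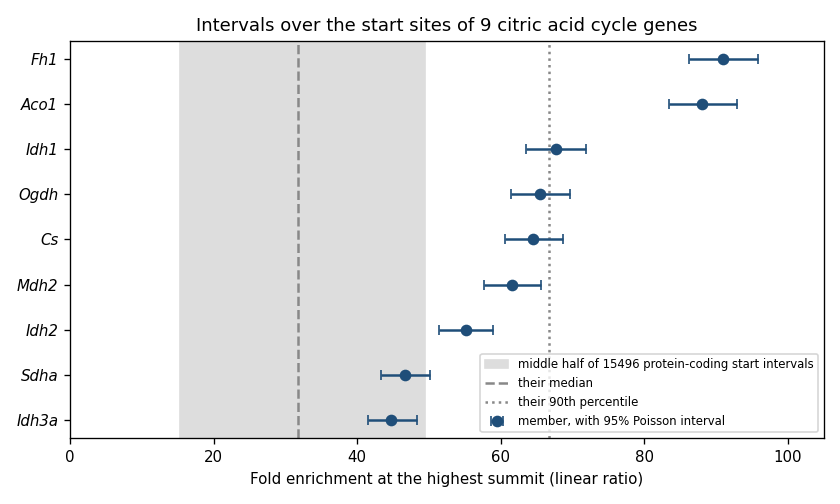
Fold enrichment (linear ratio, horizontal axis) at the highest summit of the interval over each start, with exact 95% Poisson intervals for counting error; the grey band, dashed line and dotted line are the middle 50%, median and 90th percentile of 15496 protein-coding start intervals. All 9 points lie right of the median of 31.8-fold, and Fh1, Aco1 and Idh1 lie right of the 90th percentile of 66.7-fold, where the interval of Idh1 crosses that line.

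The sequences next to 4 of the starts are shown, for Fh1 and Aco1 because their start intervals were the highest, and for Ogdh and Mdh2 because they held motifs next to the start. They were read from GRCm39 by coordinates and run 5′ to 3′ on the strand of the gene, and each ends at the base before the first transcribed base except that of Ogdh, which runs 3 bases into the transcript. Capitals mark motifs found by a search described with the results below. Those of Fh1 are an NFY motif read on the opposite strand, that of Ogdh a CRE, and those of Mdh2 a pair of SP1 motifs. The Mdh2 sequence is the whole gap between the start of Mdh2 and that of Styxl1, which is transcribed the other way. The Aco1 sequence held none of the motifs searched.
Fh1, chr1:175453206-175453305, minus strand: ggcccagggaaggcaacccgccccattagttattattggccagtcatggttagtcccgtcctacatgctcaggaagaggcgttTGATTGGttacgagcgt
Aco1, chr4:40142898-40142997, plus strand: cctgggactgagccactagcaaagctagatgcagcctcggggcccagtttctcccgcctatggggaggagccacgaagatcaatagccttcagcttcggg
Ogdh, chr11:6241451-6241553, plus strand: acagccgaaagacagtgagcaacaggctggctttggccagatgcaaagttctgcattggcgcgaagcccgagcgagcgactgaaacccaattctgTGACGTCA
Mdh2, chr5:135807241-135807291, plus strand: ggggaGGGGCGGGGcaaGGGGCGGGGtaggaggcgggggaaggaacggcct

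The summits lay close to the annotated starts. In 7 of the 9 genes the highest summit was within 100 bp of the canonical start, and in all 9 within 1 kb. Over protein-coding start intervals the shares were 54.7% and 91.6%. The Fh1 summit was 1 bp upstream of the start at chr1:175453205 and the Cs summit 40 bp upstream of that at chr10:128173592. The other 7 were downstream, at 12 bp in Idh2, 18 bp in Idh1, 43 bp in Sdha, 63 bp in Mdh2, 66 bp in Idh3a, 202 bp in Aco1 and 321 bp in Ogdh. Of these, 6 fell in the 5′ untranslated part of exon 1, and the Ogdh summit fell in intron 1.

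Most of the start intervals were also wide. Their median was 5109 bp, against 3083 bp over protein-coding start intervals, and they held 110 summits. Each of the 9 was wider than 3 kb, but that limit lies below the protein-coding median. By width, Sdha was only at percentile 54.0 of protein-coding start intervals and Idh3a at 55.1. The Idh2 interval, chr7:79760332-79766990, was the widest at 6659 bp and held 22 summits. That of Sdha, chr13:74496102-74499382, was the narrowest at 3281 bp and held 7.

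The shape inside the intervals differed among the genes. At Idh3a a single summit stood almost alone: in chr9:54492875-54496208 the next summit was only 2.82-fold, at 1564 bp downstream, and none of the 8 summits lay upstream of the start. At Ogdh, in chr11:6239630-6245157, the highest summit was 13.0 times the next, which was 5.04-fold at 2238 bp downstream. At Cs, in chr10:128170624-128176568, the ratio was 8.14, with 7.92-fold at 1915 bp upstream. At these 3 genes, then, 1 summit stood far above the rest.

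Aco1 was unlike them. Its interval, chr4:40140340-40146712, held a pair of near-equal summits, 87.3-fold at 80 bp and 88.1-fold at 202 bp downstream of the start, at a ratio of 1.01. Further summits of 11.3-fold and 7.59-fold followed at 1373 and 1760 bp. Idh2 had further high summits downstream of the one at the start, of 21.6-fold at 712 bp and 27.9-fold at 1287 bp. Its summits then fell to 1.70-fold at 2287 bp and rose again to 7.20-fold at 4162 bp. The second summit of Fh1 was 23.4-fold at 466 bp upstream, in chr1:175450499-175454441, and that of Sdha was 12.0-fold at 346 bp upstream. Mdh2, in chr5:135803218-135808326, was the gene whose interval reached mainly upstream, 4074 bp before the start and 1034 bp after it, with a second summit of 10.4-fold at 1685 bp upstream.

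Several of these starts were shared with another gene. Mdh2 and Styxl1, a divergent protein-coding pair, started 52 bp apart, with both starts in 1 interval. Ccdc127, on the strand opposite to Sdha, started 79 bp inside Sdha, so the ends of the pair overlapped. At 4 starts there was a long noncoding RNA on the opposite strand that began within the same interval, Gm69937 at 166 bp upstream of Fh1, Gm72132 at 479 bp upstream of Idh2, Gm56959 at 580 bp downstream of the Cs start and Gm72270 at 654 bp downstream of the Ogdh start. How often other protein-coding start intervals hold the start of a further gene was not counted, so such sharing cannot be called particular to these genes. ATAC-seq has no strand, so the reads at these starts cannot be split between the genes.

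Idh1 had a pair of start regions of nearly equal height. Of its 48 annotated transcripts, 17 began in the inner interval over the canonical start, chr1:65214969-65219912, and 30 began in an outer interval, chr1:65223779-65227119. The outer interval was 62.8-fold (58.9 to 66.9) with a −log10 q of 1340.05, was 3341 bp wide and held 7 summits. Its highest summit lay 7.47 kb upstream of the canonical start. The ratio of the inner to the outer summit was 1.08 (0.986 to 1.18), so the difference was within counting error.

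The outer interval was also that of Pikfyve, the gene of a phosphoinositide kinase of endosomes, which is transcribed away from Idh1. Its highest summit was 3 bp inside Pikfyve and 90 bp from the outermost Idh1 start at chr1:65225721. A second summit in the interval, of 35.9-fold, was 7262 bp upstream of the canonical Idh1 start, on the Idh1 side. The start shared by the largest number of outer transcripts, 11 of them, was at chr1:65225664, and 9 transcripts used the canonical start at chr1:65218340. Between the outermost Idh1 start and the Pikfyve start lay 86 bp. The gap is printed below on the Idh1 strand because both genes start at its ends, with an NFY motif in capitals, and the bases before the inner start follow for comparison and held none of the motifs searched. The inner interval itself had a second summit of 51.9-fold at 765 bp downstream of the canonical start.
Idh1 to Pikfyve, chr1:65225722-65225807, minus strand: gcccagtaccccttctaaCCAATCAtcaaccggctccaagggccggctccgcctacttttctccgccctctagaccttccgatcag
Idh1 inner start, chr1:65218341-65218440, minus strand: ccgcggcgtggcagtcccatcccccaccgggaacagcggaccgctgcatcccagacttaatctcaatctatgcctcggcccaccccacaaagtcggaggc

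**Figure D2:**
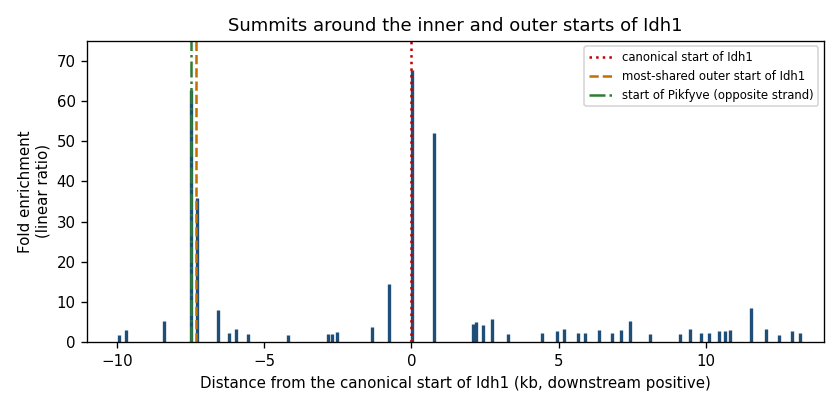
Fold enrichment (linear ratio) of each summit by distance from the canonical Idh1 start in kb, with downstream positive; vertical lines mark the canonical start, the outer start shared by the largest number of transcripts, and the start of Pikfyve. The inner summit of 67.6-fold and the outer summit of 62.8-fold stand 7.49 kb apart, and each has a second summit within 1 kb, of 51.9-fold and 35.9-fold.

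At the other 8 genes most annotated transcripts began in the start interval. The counts were 21 of 21 for Cs, 22 of 22 for Mdh2, 103 of 103 for Ogdh, 49 of 50 for Idh3a, 58 of 61 for Sdha, 39 of 43 for Idh2, 27 of 30 for Fh1 and 21 of 26 for Aco1. Transcripts that began in another interval numbered 3 in Aco1, 3 in Idh2 and 1 in Sdha. Idh1 was the gene among the 9 with most transcript starts in an interval other than that of the canonical start.

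Away from the canonical starts the 9 genes held 115 intervals, and most were low. Their median was 2.36-fold, 83 were under 3-fold, and 57 had a q under 1e-05. Low intervals were common in the whole list, where the median over all 279569 intervals, start intervals included, was 2.55-fold. Of these, 60.0% were under 3.08-fold, and 45.1% were under 2.42-fold, the lowest fold enrichment with a q under 1e-05. Of the 115, 25 had their highest summit in a first intron, 64 in a later intron, 12 in an exon, 9 upstream of the canonical start and 5 past the end of the canonical transcript, of which 2 were past the gene end. A fold enrichment of at least 5 was reached by 16 and at least 10-fold by 8, and both counts include the outer Idh1 interval, which lies over the start of Pikfyve, another protein-coding gene. Among the 114 intervals off every canonical protein-coding start, 15, or 13.2%, reached 5-fold, beside 21.1% of all 265587 such intervals in the list. At least 10-fold was reached by 7, or 6.14%, beside 8.66%.

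The number of intervals varied widely among the genes. Ogdh had 29 in all and Aco1 28, Idh1 had 15, Sdha 12, Cs and Idh2 11 each, Fh1 and Mdh2 7 each and Idh3a 4. The region searched was longest for Ogdh, at 70.7 kb, and per 10 kb of region Aco1 was highest with 4.74 and Idh3a lowest with 1.66. The median of protein-coding genes was 1.86 per 10 kb, below each of the 9 genes except Idh3a. The intervals covered 75.6% of the Idh2 region and 69.9% of the Idh1 region, but 20.9% of the Idh3a region, against a median of 16.7% over protein-coding genes.

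**Figure D3:**
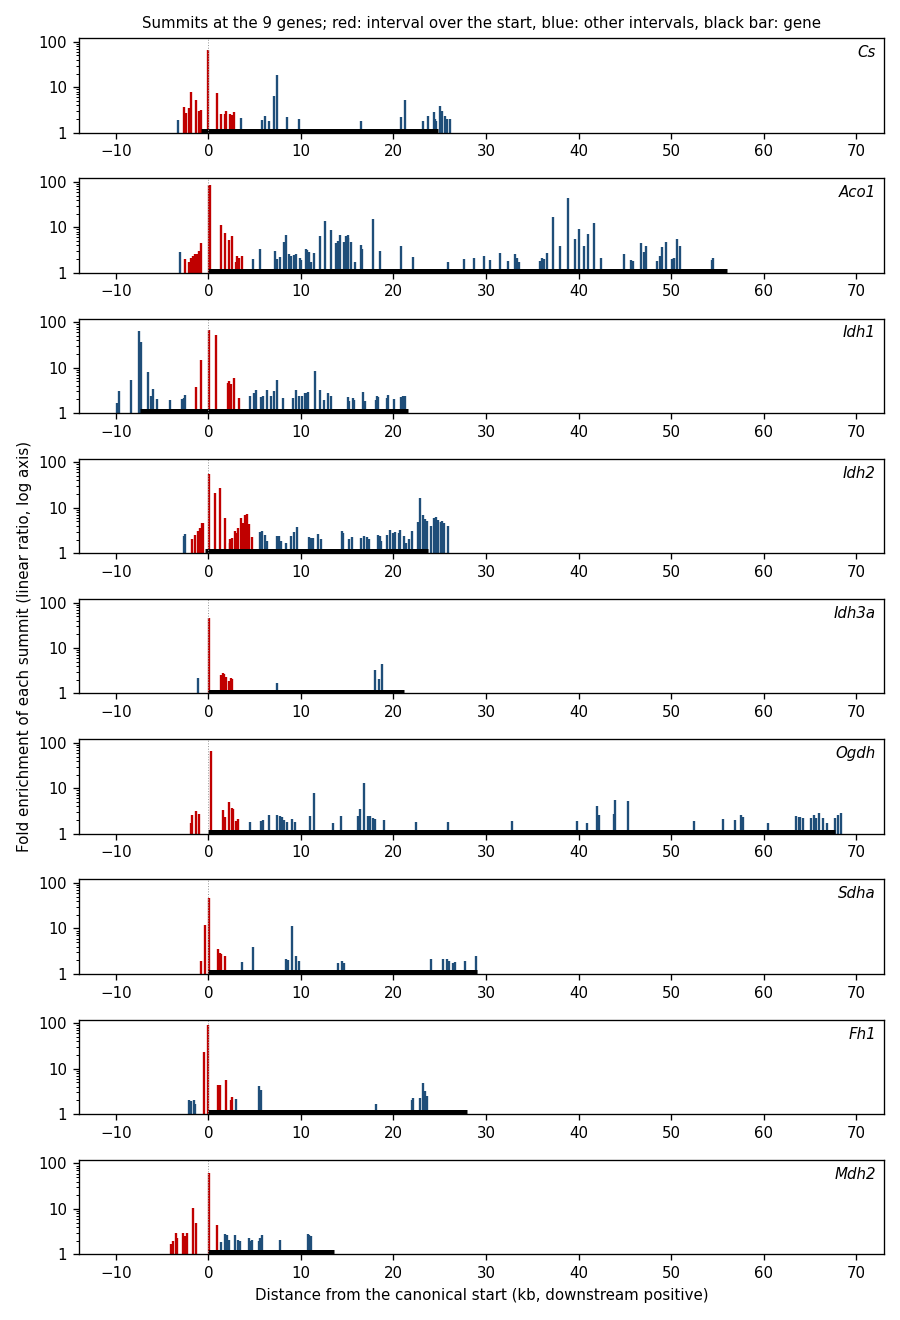
Fold enrichment of each summit (linear ratio on a log axis) by distance from the canonical start in kb, with downstream positive, in 1 panel per gene; red marks summits of the interval over the start, blue those of other intervals, and the black bar the gene. The highest red summit exceeds every blue one in each panel, and the tallest blue summits are the outer Idh1 start at 62.8-fold and intron 11 of Aco1 at 43.7-fold.

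Aco1 had the strongest interval inside a gene. In intron 11, at chr4:40178828-40185704, an interval 6877 bp wide with 14 summits reached 43.7-fold (40.4 to 47.1) with a −log10 q of 829, at 38.9 kb from the start. Its counting interval overlapped that of the Idh3a start, and no ratio was taken between them. The intron 11 interval also held a summit of 16.7-fold at 37.3 kb and one of 12.7-fold at 41.6 kb. Intron 1 of Aco1 held 15.6-fold (13.7 to 17.7) at chr4:40160364-40161638 and 14.1-fold (12.3 to 16.1) at chr4:40154772-40158554. The 14.1-fold interval also held 2 annotated starts of other Aco1 transcripts. With 6.94-fold in intron 1 and 5.56-fold in intron 18, Aco1 had 5 of the 16 intervals of at least 5-fold.

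Cs had its strongest second interval in intron 1. It lay 7.37 kb from the start at chr10:128179292-128181573 and reached 18.5-fold (16.4 to 20.8) with a −log10 q of 249. The start of the long noncoding RNA Gm67264, on the opposite strand, fell within it. An interval in intron 7 of Cs reached 5.24-fold, and one at the gene end, chr10:128197747-128199811, 3.80-fold, close to the end of Coq10a. The 151 bases around the summits in intron 11 of Aco1 and intron 1 of Cs are shown as the highest intron summits off the start intervals, on the plus strand of GRCm39 with the summit base in capitals.
Aco1 intron 11, chr4:40181825-40181975: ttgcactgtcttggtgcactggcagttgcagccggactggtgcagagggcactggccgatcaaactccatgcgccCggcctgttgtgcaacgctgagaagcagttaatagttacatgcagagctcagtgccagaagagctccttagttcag
Cs intron 1, chr10:128180888-128181038: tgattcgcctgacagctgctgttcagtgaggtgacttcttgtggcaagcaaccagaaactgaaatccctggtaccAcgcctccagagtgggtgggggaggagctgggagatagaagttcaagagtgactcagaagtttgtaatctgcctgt

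Idh2 had a broad interval at its far end, chr7:79738974-79746057, with 24 summits and 16.7-fold (14.7 to 18.9) at 22.9 kb from the start. The highest summit lay in the 3′ untranslated region of Zfp710, a zinc finger gene on the opposite strand that overlaps the end of Idh2, so this signal cannot be assigned to either gene. The next intervals of Idh2, both in intron 1, were 3.73-fold and 3.14-fold. In Ogdh, intron 2 held 13.1-fold (11.3 to 15.0) at chr11:6257615-6259625, 16.8 kb from the start. Further Ogdh intervals reached 7.92-fold at 11.4 kb and, in intron 5, 5.56-fold at 44.0 kb.

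Sdha had 11.6-fold (9.95 to 13.4) in intron 3 at chr13:74488382-74490165, an interval that also held the processed pseudogene Gm16125, and 3.93-fold in intron 1. Idh1 had, besides its outer start, 8.45-fold in intron 4 and 5.37-fold in intron 2. The remaining 3 genes had no interval of 5-fold or more beyond the start. Fh1 reached 4.78-fold in intron 9 and 4.26-fold in intron 1, the latter at a transcript start of Kmo, the gene of kynurenine monooxygenase on the opposite strand. Idh3a reached 4.52-fold at its far end, in the 3′ untranslated region of Acsbg1, which overlaps it on the opposite strand. The 6 further intervals of Mdh2 were all under 3-fold, with 2.75-fold the highest.

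The start regions were searched for 10 short motifs on both strands, from 250 bases before to 50 bases from the start on, with the first transcribed base at position 0. The motifs were GCGCATGCG for NRF1, CCGGAAGT for ETS factors, GGGGCGGGG for SP1, AAGATGGCG for YY1, CCAATCA for NFY, TGACGTCA for CRE, TNAAGGTCA for ERR, CAAAGTCCA for HNF4, GTTAATNAT for HNF1 and TATAAAA for the TATA box. A match describes letters and not a bound site. Of 90 combinations of gene and motif, 6 were found.

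Mdh2 held an ETS motif at −75 to −68 and SP1 motifs at −46 to −38 and −34 to −26. Idh1 held an SP1 motif at 19 to 27. The CRE of Ogdh spanned its first transcribed base, at −5 to 2. NFY motifs were found at −17 to −11 in Fh1, and at −133 to −127 and 1 to 7 in Idh3a. Cs, Aco1, Idh2 and Sdha held none of the 10. Over all 21757 protein-coding starts, the shares with a match were 4.35% for ETS, 14.1% for SP1, 9.22% for NFY and 2.45% for CRE. Among starts with an interval, as all 9 genes had, these shares were 5.77%, 19.0%, 9.69% and 3.01%. The motifs with no match at the 9 starts were in 2.45% (NRF1), 1.34% (YY1), 1.24% (ERR), 0.450% (HNF4), 0.809% (HNF1) and 5.16% (TATA box) of all starts. Among starts with an interval they were in 2.85%, 1.81%, 0.936%, 0.432%, 0.600% and 2.95%, in the same order.

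Within 100 bp on either side of the highest start summit, 7 combinations were found, among them an NRF1 and an SP1 motif in Idh3a and a CRE in Mdh2. No share over all start summits is given for this window. The 16 strongest intervals off the starts, taken over the same width, held an NFY motif in the outer Idh1 interval and a TATA box sequence in intron 18 of Aco1. No ERR, HNF4 or HNF1 motif was found in these 16 windows. Over the 56041 intervals of at least 5-fold off protein-coding starts, which do not include the outer Idh1 interval, these 3 motifs were in 1.78%, 1.77% and 3.09% of windows. NFY motifs were in 2.49% of those windows and TATA box sequences in 2.00%.

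The GC content of the 300-base start regions ran from 50.7% in Idh3a to 65.7% in Idh2, around a median of 58% over starts with an interval. CpG dinucleotides, which mark CpG island promoters, were present at 0.499 of the number expected from base composition in Aco1 and at 0.889 in Ogdh. The other 7 genes lay between 0.617 in Fh1 and 0.856 in Idh3a, and the median over starts with an interval was 0.673. Aco1, with the second highest start interval, therefore had the lowest CpG ratio of the 9, and Idh3a, with the lowest interval, the second highest.

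The partners of these enzymes were read in the same way. The list of other pathway genes held 44 genes with 480 intervals, and 42 had an interval over their start, with a median of 42.4-fold and a range of 12.5-fold to 106.8-fold. Above the protein-coding median of 31.8-fold stood 33 of the 42, beside 9 of 9 of the genes described above. The lists were chosen by hand, and no test was made between them.

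The subunit genes of a single enzyme did not all stand at the same height. For the NAD-dependent isocitrate dehydrogenase, Idh3a was 44.8-fold and Idh3g, a regulatory subunit, 41.8-fold (38.6 to 45.1), with overlapping counting intervals. No ratio was taken between Idh3a and Idh3g, and overlap alone does not show equal heights. The Idh3g interval also held the start of Ssr4, so its reads cannot be split between the genes. Idh3b, also regulatory, was lower at 22.1-fold (19.8 to 24.6). For the alpha-ketoglutarate dehydrogenase complex, Ogdh at 65.5-fold stood above Dld at 42.9-fold (39.7 to 46.4), the dihydrolipoamide dehydrogenase shared by several complexes, and above the core subunit Dlst at 28.7-fold (26.1 to 31.5).

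For succinate dehydrogenase, Sdhb, the iron-sulfur subunit, was 62.9-fold (58.9 to 67.0) and above Sdha at 46.6-fold. Of the membrane anchors, Sdhc was below Sdha at 37.3-fold (34.3 to 40.5). Sdhd was 41.6-fold (38.4 to 44.9), with a counting interval that overlapped that of Sdha. No ratio was taken between Sdhd and Sdha, and overlap alone does not show equal heights. The Sdhd interval also held the start of Timm8b, and that of Sdha the start of Ccdc127, so their reads cannot be split between the genes. The cytosolic malate dehydrogenase, Mdh1, was 96.4-fold (91.5 to 101.4), above Mdh2 at 61.6-fold. The Mdh1 interval also held the start of Wdpcp, and that of Mdh2 the start of Styxl1. Neither height can be assigned to 1 gene alone.

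Among the classes of this list, the 12 genes for the entry of pyruvate, which cover its carrier and the pyruvate dehydrogenase complex with its kinases and phosphatases, had a median of 62.6-fold. The 11 other genes of the cycle had a median of 39.9-fold, the 11 for filling and draining reactions 43.9-fold, 3 of 4 assembly factors of succinate dehydrogenase 41.3-fold, and 5 of 6 paralogs and cytosolic forms 27.8-fold. Pdk4, a kinase that switches off pyruvate dehydrogenase, was the highest at 106.8-fold (101.7 to 112.1), followed by Mdh1 and by Mpc2, a subunit of the mitochondrial pyruvate carrier, at 93.8-fold (89.0 to 98.7). These were the 3 genes of the list above Fh1 by value. The counting intervals of Mdh1 and Mpc2 overlapped that of Fh1 (86.2 to 95.8), and no ratio to Fh1 was taken. The Mdh1 and Mpc2 intervals also held the starts of Wdpcp and Dcaf6, so their reads cannot be split between the genes. The lowest were Ogdhl, a paralog of Ogdh, at 12.5-fold (10.8 to 14.4), Me1, the cytosolic malic enzyme, at 21.1-fold (18.8 to 23.5), and Idh3b.

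In 2 genes of the list there was no interval over the start. Csl, a paralog of Cs, had none in its region. Sdhaf1 had 3 in its region, the highest at 67.2-fold. Acly, the gene deleted in tubules of the Acly cKO mice, had 20 intervals and 50.2-fold (46.7 to 53.8) at its start, a value of the pool that does not check the labels. Slc25a1, the mitochondrial citrate carrier, was listed at 39.5-fold, but this summit lay 6406 bp from its start in an interval 10861 bp wide.

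**Figure D4:**
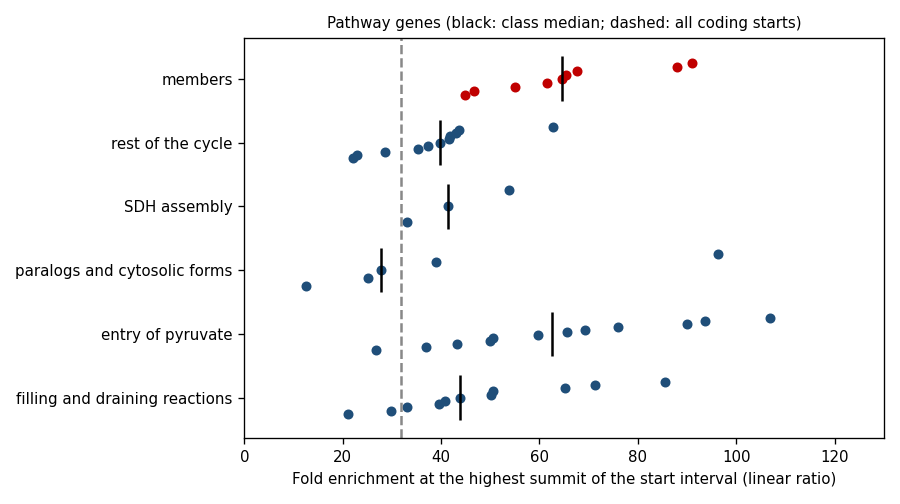
Fold enrichment (linear ratio, horizontal axis) at the highest summit of the start interval for the 9 genes (red) and the other pathway genes by class (blue); black bars are class medians and the dashed line the median of all protein-coding start intervals. Idh3b and Dlst lie left of the dashed line at 31.8-fold, and Pdk4, Mdh1 and Mpc2 lie right of every red point.

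As a check of the tissue, 31 marker genes were read, and 25 had an interval over the start. All 6 proximal tubule markers did, from 5.30-fold to 33.1-fold, the highest in Lrp2, which encodes the endocytic receptor megalin. Markers of the thick ascending limb (8.05-fold to 20.8-fold), collecting duct (3.54-fold to 28.4-fold) and podocytes (3.14-fold to 9.76-fold) also had intervals over the start. So did those of the distal tubule in 1 of 2 genes (Slc12a3, 8.38-fold) and endothelium in 2 of 3 (2.75-fold and 8.64-fold). Markers of stroma had them in 2 of 2 genes (5.63-fold and 10.9-fold) and those of immune cells in 3 of 3 (1.90-fold to 31.2-fold). In 3 of these genes the highest summit lay more than 3 kb from the start, at 18535 bp in the proximal tubule marker Slc34a1, 3567 bp in Cd68 and 4502 bp in Csf1r, and in Slc12a3 it lay at 1744 bp. Of genes of other organs, Alb was at 2.95-fold and Apoa2 at 2.82-fold, and Myh6, Ins2 and Gfap had no interval over the canonical start. Gfap did have an interval over another of its annotated starts. The regions of these genes were not closed throughout. Their highest intervals reached 80.3-fold for Apoa2, 21.0-fold for Alb, 16.8-fold for Gfap and 6.81-fold for Myh6, but stayed under 5-fold for Ins2. The low values therefore hold for the canonical starts only. Each of the 9 citric acid cycle genes was higher at its start than any of the 25 markers with a start interval was at its own. The part of each cell type in the signal at the 9 genes was not tested.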

How the data were processed

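Kidney ATAC-seq libraries of 3 WT and 3 Acly cKO mice were grouped by their labels. Per the study's methods, fastp was used by the authors for trimming and Bowtie2 2.3.4.3 for alignment to mm39, and they kept unique non-duplicate reads, called peaks with MACS3 3.0.0 at a q of 0.05, and removed blacklisted regions with BEDTools 2.29.1. The submitters' notes also name deepTools 3.5.1, which made none of the values used here.

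The deposited peak list holds 749750 summits. Its fold enrichment is a ratio computed by the authors' caller, its −log10 p and −log10 q are the authors' values, its score is 10 times the −log10 q by the authors' caller, and the summit offset is the authors' distance from the interval start. Below 20-fold, all 727147 summits (100%) were whole reads plus a pseudocount of 1, within 0.01 of a step, over a background of 14.2741 reads plus the same pseudocount. Poisson tails from these reads differed from the deposited −log10 p by at most 0.000493%. Exact 95% Poisson intervals, and exact intervals for ratios of reads, therefore cover counting error in the pool. The depth of single libraries is unknown, and reads are not independent molecules.

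Summits were joined into intervals by shared coordinates, and each interval took its highest summit by q. Genes and canonical starts came from GENCODE M39, and sequences from GRCm39, written from 1. Promoters of another build were not used. The members and lists were chosen with earlier results of these data known. Named were each of the 9 genes with up to 3 further intervals by −log10 q, and, of 44 other pathway genes, the 3 highest, the 3 lowest, those with no start interval and the enzyme partners. Intervals of at least 5-fold, Acly, Slc25a1, and the neighbours that share an interval were added after their values were seen. Of the listed pathway and marker genes, 1 each is not reported by name here. No test was made. Alternatives covered thresholds, region limits and the choice of summit. The steps were tested on simulated data. Python 3.11.15, pandas 2.3.3 and scipy 1.17.1 were used.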

Additional observations from a re-analysis of the deposited data

How the results depend on the processing

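The 124 intervals at the 9 genes depended on the threshold, with 66 left at a q under 1e-05 and 25 left when 5-fold was required, since these limits drop low intervals. The count was 104 at a q under 0.01, 168 with 10 kb on either side, 121 when intervals were placed by their highest summit, and 121 without those over another protein-coding start, a setting chosen after seeing the data. All 9 genes kept a start interval with any annotated start, with the highest summit within 1 kb, and with a q under 1e-05. The median of 64.5-fold was the same with either other choice of summit. The median percentile of 88.7 became 92.0 among all protein-coding genes with those lacking an interval ranked lowest, and 90.5 with the summit nearest to the start. The 42 other pathway genes with a start interval stayed 42, and the 6 combinations of gene and motif became 7 around the summits. No paired analysis was possible because the pool has no column for any library, and for that reason no replicate could be left out. Heights in the pool limit what can be said to the tissue as a whole.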

Other observations

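Before blacklisted regions were removed, the deposited summit list held 401 summits inside the regions of the 9 genes, counting none of the summits that lie past a region's edge, and 0 of them were absent from the filtered list.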
